A study of Mus musculus with 10 samples.

Results

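Kit, Cd44, Thy1, Cd24a, Ly6a, Cd2, Cd5, Cd7, Cd27 and Cd34 encode surface molecules by which progenitors and the early stages of T cell development are told apart. These 10 genes were taken by name, with no threshold on their values but with earlier results of these data known, and all 10 were found among the 24062 genes counted in each library. Of the 10, 9 were among the 12221 genes that reached a level of 1 CPM (count scaled to the library's gene reads) or more in 2 libraries or more and so entered the test across genes. Cd2 did not reach that level, so its values are given without the main test.

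KIT is the receptor for stem cell factor, and marrow cells that lack lineage markers and carry KIT and SCA1, the product of Ly6a, form the LSK fraction in which mouse stem and multipotent progenitor cells are found. Within the CD4- CD8- double-negative (DN) thymocytes, high KIT and CD44 mark the earliest cells, CD25 appears at the DN2 step, and CD44, a receptor for hyaluronan, is lost as cells commit to the T lineage. CD34 is a sialomucin of stem and progenitor cells, CD24 a lipid-anchored glycoprotein of immature lymphocytes, THY1 the classical lipid-anchored marker of mouse T cells, and CD2, CD5, CD7 and CD27 are adhesion, inhibitory and costimulatory receptors of T cells and their precursors.

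RNA was sequenced from 10 mouse libraries, all begun with LSK cells of the marrow grown in 4 factors, namely stem cell factor, FLT-3 ligand, IL-6 and IL-11. DN1 cells (KIT++ CD44+ CD25-) were sorted from cultures on immobilized Delta1, a Notch ligand coated at 5 µg/mL, without IL-7. DN2a cells (KIT++ CD44+ CD25+) and DN2b cells (KIT+ CD44lo CD25+) were sorted from cultures on the same ligand to which IL-7 was added at 100 ng/mL from day 14. The control, IgG, was cultured on human IgG at 5 µg/mL in place of the ligand and is labelled day 14, and no sort by stage is given for it. There were 2 libraries for each DN stage, called replicate 1 and replicate 2 after the earlier and the later year in their titles, and 4 IgG libraries, labelled WT and D1, D2, R1 and R2. The DN labels give no genotype, and the letters D and R are not explained in the sources used here. Replicates came from independent LSK isolates, and with 2 libraries a stage the p-values below rest on few of them. Stage and IL-7 change together between DN1 and DN2, so their parts cannot be told apart. Against IgG, each DN stage differs in the ligand and the sort together, and DN2 also in IL-7. A day is labelled for IgG alone. The parts of these in a difference from IgG cannot be told apart either. KIT and CD44 were used in the sort, and KIT and SCA1 in the isolation of the starting cells of all groups, so the Kit and Cd44 RNA of the stages is compared with the sort and is not a finding about it.

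Gene reads per library ran from 12354635 to 35367925, and 3 reads in a library corresponded to 0.0848 to 0.243 CPM, the limit below which a gene at 0 could not be told from one present. In these bulk samples, fewer cells of a type and less RNA per cell cannot be told apart. Marker genes of other cell types were not even across the libraries. The summed level of 8 neutrophil genes was 22036 to 61728 CPM in the IgG libraries, 2971 and 85.5 CPM in DN1 replicates 1 and 2, 10.7 to 20.2 CPM in DN2a and 1.496 to 2.91 CPM in DN2b. For 7 macrophage genes the sums were 8601 to 16070 CPM in IgG, 307 and 63.9 CPM in DN1, and 13.3 to 47.5 CPM in the DN2 libraries. DN1 replicate 1 also had higher sums in 8 mast cell genes (1905 CPM against 502 CPM in replicate 2), 7 erythroid genes (212 against 3.52 CPM) and 6 NK and ILC genes (2507 against 433 CPM). All 8 neutrophil and all 8 mast cell genes were higher in replicate 1, while the gap in NK and ILC genes lay in Gzmb (2310.3 against 249 CPM, and 197 against 184 CPM for the other 5) and that in macrophage genes in Lyz2 (268 against 24.6 CPM, and 39.5 against 39.3 CPM for the other 6). The comparisons of DN1 were also run without replicate 1, with the remaining library assumed to vary like those of the other groups. The 6 B cell genes summed to 5.57 to 17.0 CPM in every library and the 6 dendritic cell genes to 19.1 to 130 CPM. Between 0 and 4 genes of a list had no read in a given library. The part of other cells in any difference below was not tested.

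**Figure D1:**
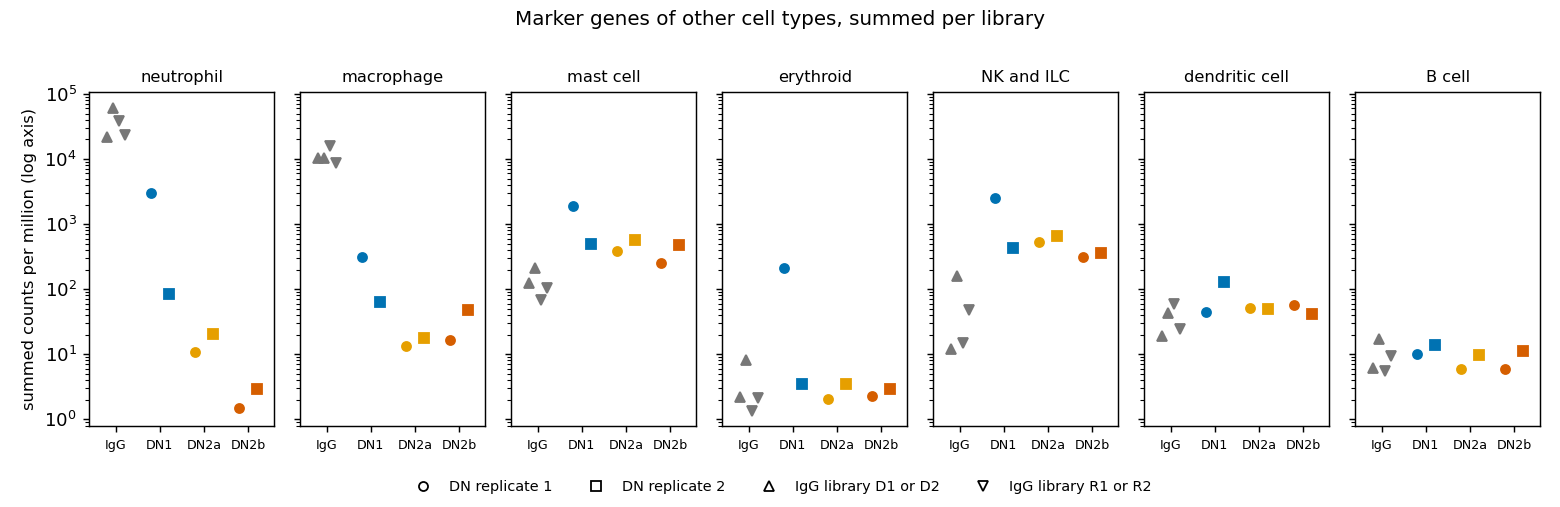
Summed CPM (log axis) of marker genes of 7 other cell types in each of the 10 libraries, with groups on the x axis and 1 point per library. The IgG libraries lie far above the DN libraries for neutrophil and macrophage genes, and DN1 replicate 1 lies above replicate 2 in the sums of neutrophil, macrophage, mast cell, erythroid, and NK and ILC genes, the macrophage gap being carried by Lyz2 and the last by Gzmb.

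Promoter sequence was looked up in RefSeq (build GRCm38.p6) as the 250 bases before a gene's start, and entries were found for Kit, Cd44, Cd5, Cd27 and Cd34. To show how far promoters of the members differ in CpG content, the windows of 4 with different courses of expression are printed 5′ to 3′ with each CpG in capitals. Kit and Cd44 are used in the sort, Cd5 and Cd27 are T lineage receptors.
Kit (chr5:75574737-75574986, + strand): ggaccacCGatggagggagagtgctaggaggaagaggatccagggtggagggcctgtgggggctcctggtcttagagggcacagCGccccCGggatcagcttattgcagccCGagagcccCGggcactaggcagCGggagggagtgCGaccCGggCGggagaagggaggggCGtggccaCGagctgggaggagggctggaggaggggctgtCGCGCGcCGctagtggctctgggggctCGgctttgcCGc
Cd44 (chr2:102901666-102901915, - strand): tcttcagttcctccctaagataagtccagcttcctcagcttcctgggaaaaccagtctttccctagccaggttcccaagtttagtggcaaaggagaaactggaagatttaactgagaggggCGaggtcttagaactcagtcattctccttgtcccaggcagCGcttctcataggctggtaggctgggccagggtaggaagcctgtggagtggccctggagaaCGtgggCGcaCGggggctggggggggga
Cd5 (chr19:10738975-10739224, - strand): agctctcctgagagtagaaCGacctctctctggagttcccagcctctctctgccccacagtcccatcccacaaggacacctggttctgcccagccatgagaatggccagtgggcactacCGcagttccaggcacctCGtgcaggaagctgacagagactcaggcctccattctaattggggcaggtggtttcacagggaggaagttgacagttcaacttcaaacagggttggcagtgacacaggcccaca
Cd27 (chr6:125237028-125237277, - strand): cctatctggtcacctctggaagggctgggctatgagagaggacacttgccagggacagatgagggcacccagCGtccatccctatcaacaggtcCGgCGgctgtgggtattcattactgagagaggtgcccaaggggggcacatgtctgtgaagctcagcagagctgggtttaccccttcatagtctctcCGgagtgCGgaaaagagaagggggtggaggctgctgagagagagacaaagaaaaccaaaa
The observed over expected CpG ratio was 0.601 in the Kit window, with 17 CpG, 0.446 for Cd34, 0.264 for Cd27, 0.257 for Cd44 and 0.150 for Cd5. A second Kit window (chr5:75574741-75574990), not printed, held 18 CpG at a ratio of 0.631. Over 32536 RefSeq windows of this length the quartiles of that ratio were 0.169, 0.378 and 0.725, so Kit and Cd34 lay above the median, Cd27 and Cd44 below it and Cd5 below the first quartile. On both strands, the RBPJ core TGGGAA was present 2 times in the Cd44 window, 1 time in that of Cd5 and 0 times for Kit, Cd27 and Cd34. It is held by 21.6% of all windows. The E-box CANNTG was present 3 times for Cd27, 2 times for Cd5 and 0 times for Kit, Cd44 and Cd34, and is held by 66.2% of all windows. The Runx core TGTGGT was in no window of the 5 genes, against 13.96% of all. These are matches of letters in a short window and describe the sequence alone.

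Measured against IgG, most of these genes were at other levels in the DN stages, while few differences between the stages passed the test. In the quasi-likelihood test of edgeR, with p adjusted by Benjamini-Hochberg over the 12221 genes, 6 of the 9 tested members were higher and 2 lower in DN1 than in IgG, where 31.4% of all genes were called (14.3% higher and 17.0% lower). On leaving out DN1 replicate 1 the members' counts were 5 and 1, with Thy1 and Ly6a no longer called, and 22.9% of all genes were called (11.1% higher and 11.8% lower). In DN2a, 5 were higher and 2 lower, against 45.5% of all genes (21.2% higher and 24.3% lower), and in DN2b 5 were higher and 1 lower, against 42.5% (19.9% and 22.5%). The genes of the sort are among these calls, Kit and Cd44 in DN1 and DN2a and Cd44 in DN2b. Between stages, 1 member (Cd44) was called from DN1 to DN2b, against 1.91% of all genes (1.01% higher and 0.892% lower), and 0 from DN1 to DN2a, against 0.401% (0.196% and 0.205%). As DN1 was gated CD44+ and DN2b CD44lo, the call of Cd44 follows the sort and is not a result apart from it. From DN2a to DN2b, 0 members and 0 of all genes (0.0%) were called, while at an unadjusted p under 0.05 edgeR gave 1 member (Cd44) and 2.74% of all genes, and DESeq2 called 29 genes (0.237%) with Cd44 among them. At the same unadjusted p, 4 members (Cd34, Cd44, Cd5 and Thy1) passed from DN1 to DN2a, against 10.9% of all genes, and DESeq2 called 3 of these after adjustment, Cd34, Cd44 and Cd5, against 3.88% of all genes. From DN1 to DN2b DESeq2 called 3 members, Cd34, Cd44 and Thy1, against 6.73% of all genes. The 3 comparisons with IgG share the 4 IgG libraries, and those between stages share the stage libraries, so they are not independent of each other.

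**Figure D2:**
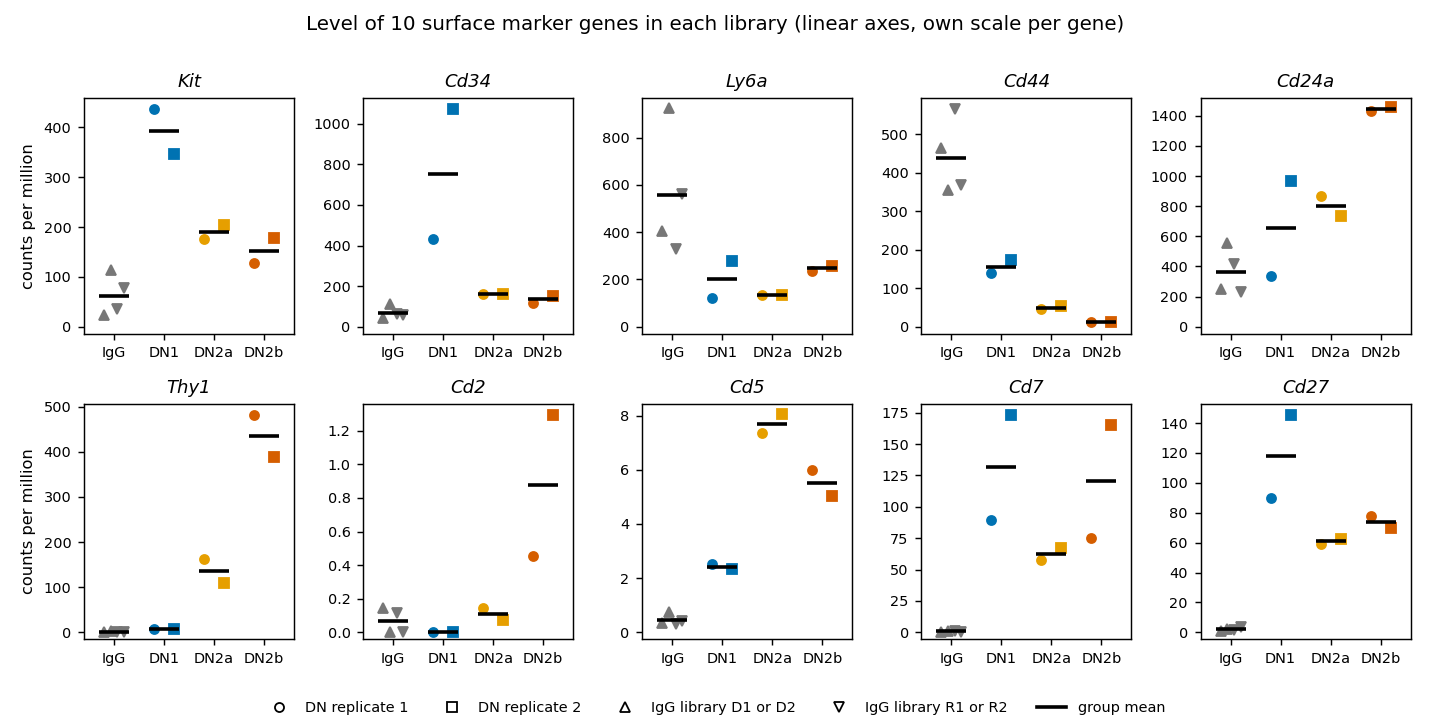
CPM (linear axes from 0, each gene on its own scale) of the 10 genes in every library, with 1 point per library and a line at each group's mean. The levels of Cd44 are ordered from high to low as IgG, DN1, DN2a and DN2b with no overlap, those of Thy1 in the opposite order, and Cd7 and Cd27 are near 0 in IgG and present in every DN library.

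Among the progenitor receptors, Kit RNA was highest in DN1. It stood at 438 and 346 CPM in the 2 DN1 replicates, 176 and 205 CPM in DN2a, and 127 and 179 CPM in DN2b. The IgG libraries ranged from 23.0 (D1) through a median of 56.4 to 115 CPM (D2). DN1 thus lay above all other libraries, DN2a and DN2b overlapped each other, and all 6 DN libraries lay above all 4 IgG libraries. Kit was higher in DN1 than in IgG by a log2 fold change of 2.36 ± 0.52 (SE, adjusted p = 0.00982, edgeR) and in DN2a by 1.53 ± 0.52 (adjusted p = 0.0387), while the difference for DN2b, 1.20 ± 0.53, did not pass (adjusted p = 0.0925). The DN2a call was lost on leaving out DN1 replicate 1, either DN2a library, DN2b replicate 1 or IgG library D1, R1 or R2 (adjusted p = 0.0502 to 0.16), and DN2b was called without IgG library D2 (adjusted p = 0.00593). Between the stages the log2 fold changes were -0.83 ± 0.63 from DN1 to DN2a and -0.33 ± 0.63 from DN2a to DN2b, neither of which passed (adjusted p = 0.691 and 1, edgeR). Without DN1 replicate 1, Kit in DN1 over IgG was 2.26 ± 0.65 (adjusted p = 0.0413), and from DN1 to DN2a it was -0.73 ± 0.79 (adjusted p = 1). Set beside the sort, mean Kit in DN1 was 2.06 times that in DN2a, both gated as KIT++, a difference that did not pass, and DN2a and DN2b, gated as KIT++ and KIT+, overlapped.

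Cd34, like Kit, had its highest mean in DN1. DN1 held 432 and 1075 CPM in replicates 1 and 2, DN2a 159.6 and 160.03 CPM, and DN2b 117 and 152 CPM, against 44.0 to 110.4 CPM (median 61.5) in IgG. No DN library overlapped the IgG range, and both DN1 libraries lay above every other library while differing by 2.49 times from each other. Cd34 was higher in DN1 than in IgG by a log2 fold change of 3.18 ± 0.45 (SE, adjusted p = 0.00145, edgeR), and by 3.73 ± 0.43 without DN1 replicate 1. The differences of 1.11 ± 0.45 for DN2a and 0.85 ± 0.45 for DN2b over IgG did not pass (adjusted p = 0.0693 and 0.153), though without IgG library D2 both did (adjusted p = 0.0116 and 0.0256), and DN2a also did without either DN1 replicate (adjusted p = 0.0388 and 0.0371). From DN1 to DN2b the log2 fold change of Cd34 was -2.33 ± 0.56 (adjusted p = 0.0841, edgeR), which passed with DESeq2 (adjusted p = 0.00159) and without IgG library D2 (adjusted p = 0.0379). From DN1 to DN2a it was -2.07 ± 0.55 (adjusted p = 0.198). Without DN1 replicate 1 the steps to DN2a and DN2b were -2.62 ± 0.52 and -2.88 ± 0.52 (adjusted p = 0.203 and 0.0690).

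Ly6a, whose product SCA1 was used to isolate the starting cells, was highest in the control. The IgG libraries held 329 (R1) to 926 CPM (D2) with a median of 483 CPM, DN1 123 and 278 CPM, DN2a 134 and 133 CPM, and DN2b 236 and 259 CPM. Every DN library lay below every IgG library. Its log2 fold change over IgG was -1.74 ± 0.52 (SE) in DN1 (adjusted p = 0.0315, edgeR), -2.16 ± 0.53 in DN2a (adjusted p = 0.0100) and -1.27 ± 0.51 in DN2b (adjusted p = 0.0680). The DN1 call was lost without DN1 replicate 1 (-1.23, adjusted p = 0.165) or DN2a replicate 1 (adjusted p = 0.0509), and the DN2a call without either DN2a library (adjusted p = 0.082 and 0.067). The DN2b difference was called without either DN1 replicate (adjusted p = 0.0483 and 0.0496) or without IgG library R1 (adjusted p = 0.0495), and by DESeq2 (adjusted p = 0.0209). Between stages Ly6a gave no call, and the 2 replicate numbers, which stand for the years, pointed opposite ways from DN1 to DN2a, with log2(CPM + 1) differences of 0.12 in replicate 1 and -1.06 in replicate 2, and from DN1 to DN2b, with 0.94 and -0.10. Ly6a has close relatives in the Ly6 cluster, and reads that match several of them equally may be missing from its count.

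Cd44 was the one member that separated all 4 groups downward, and the one member called between stages. Its level was 356 (D2) to 566 CPM (R1) in IgG with a median of 416 CPM, 139 and 173 CPM in DN1, 45.1 and 52.5 CPM in DN2a, and 13.1 and 11.1 CPM in DN2b. No 2 groups overlapped. Against IgG the log2 fold change was -1.76 ± 0.30 (SE) in DN1 (adjusted p = 0.00318, edgeR), -3.25 ± 0.33 in DN2a (adjusted p = 1.97e-04) and -5.26 ± 0.37 in DN2b (adjusted p = 2.74e-05), and each was called in all 17 alternatives. DN2b was below DN1 by -3.50 ± 0.35 (adjusted p = 0.0034), called in all 19 alternatives, with a mean level 12.9 times lower. The steps from DN1 to DN2a, -1.48 ± 0.33 (adjusted p = 0.118), and from DN2a to DN2b, -2.01 ± 0.33 (adjusted p = 0.504), did not pass by edgeR and did by DESeq2 (adjusted p = 0.00171 and 6.42e-05). Both steps pointed down in both replicates, with log2(CPM + 1) differences of -1.60 and -1.70 for the first and -1.71 and -2.14 for the second. Set beside the sort, DN2b was gated as CD44lo and had the lowest Cd44 RNA, while DN1 and DN2a, both gated as CD44+, differed by 3.19 times.

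Cd24a had the highest mean level per length in each DN stage and was higher in DN2b than in IgG. It ran from 230.4 to 556 CPM (median 336) in IgG, was 339.7 and 968 CPM in DN1, 870.5 and 737 CPM in DN2a, and 1430.1 and 1456 CPM in DN2b. DN2b lay above all other groups, and the 2 DN1 libraries differed by 2.85 times, with replicate 1 inside the IgG range. The log2 fold change over IgG was 1.87 ± 0.49 (SE) in DN2b (adjusted p = 0.0143, edgeR), a call lost without either DN2b library (adjusted p = 0.0663 and 0.052). It was 1.03 ± 0.50 in DN2a (adjusted p = 0.116), called without IgG library D2 (adjusted p = 0.0361), and 0.57 ± 0.50 in DN1 (adjusted p = 0.412). Without DN1 replicate 2 the DN1 difference was -0.47, and without replicate 1 it was 1.17 ± 0.50 (adjusted p = 0.124). From DN1 to DN2b the log2 fold change was 1.30 ± 0.60 (adjusted p = 0.382, edgeR), with 2.07 in replicate 1 and 0.59 in replicate 2 on the log2(CPM + 1) scale, and it was 0.70 ± 0.61 without DN1 replicate 1. It was 0.46 ± 0.59 to DN2a, where the replicates differed in direction (1.35 in replicate 1 and -0.39 in replicate 2 on the log2(CPM + 1) scale).

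Of the T lineage receptors, Thy1 had the widest range between stages. IgG held 0.0969 CPM (2 reads, D1), 0.141 CPM (5 reads, R1), 0.405 CPM (12 reads, R2) and 2.93 CPM (74 reads, D2), DN1 7.55 and 8.27 CPM, DN2a 162 and 108 CPM, and DN2b 482 and 388 CPM. The 4 groups did not overlap, and mean Thy1 in DN2b was 54.97 times that in DN1. By mean CPM, with no correction for gene length, Thy1 ranked above 53.7% of the detected genes in DN1 and above 98.2% in DN2b. Its log2 fold change over IgG was 7.11 ± 1.03 (SE) in DN2a (adjusted p = 9.29e-04, edgeR) and 8.80 ± 1.09 in DN2b (adjusted p = 4.95e-04). In DN1 it was 2.83 ± 0.95 (adjusted p = 0.0489), a call that was lost on leaving out any of the 10 libraries except IgG D2 (adjusted p = 0.0632 to 0.151) and was made in 5 of 17 alternatives. Without IgG D2, Thy1 in DN1, DN2a and DN2b over IgG was 4.95 ± 0.40, 9.23 ± 0.43 and 10.92 ± 0.45 (adjusted p = 2.47e-04, 3.12e-05 and 1.86e-05). Between stages the differences of 4.28 ± 1.20 to DN2a (adjusted p = 0.227) and 5.97 ± 1.30 to DN2b (adjusted p = 0.0592) did not pass in the fit with all libraries. With the 6 DN libraries alone they passed, both without a replicate block (adjusted p = 0.00795 and 0.00289, edgeR) and with the year as a block (adjusted p = 0.0191 and 0.00823), and with IgG D2 left out they passed as well (adjusted p = 0.0126 and 0.00343). The second also passed without IgG D1 (adjusted p = 0.0489). From DN2a to DN2b the difference was 1.69 ± 1.07 (adjusted p = 1).

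Cd5, a negative regulator of antigen receptor signalling, was low everywhere and higher in each DN stage than in IgG. It held 7 to 19 reads a library in IgG (0.311 to 0.751 CPM, median 0.372), 2.52 and 2.33 CPM in DN1, 7.36 and 8.05 CPM in DN2a, and 5.98 and 5.02 CPM in DN2b. The 4 groups did not overlap, and the highest level was in DN2a. Against IgG the log2 fold changes were 2.12 ± 0.49 (SE) in DN1 (adjusted p = 0.0118, edgeR), 3.99 ± 0.50 in DN2a (adjusted p = 4.86e-04) and 3.50 ± 0.49 in DN2b (adjusted p = 8.46e-04). The first was 2.13 ± 0.60 without DN1 replicate 1 (adjusted p = 0.0373). From DN1 to DN2a it was 1.87 ± 0.59 (adjusted p = 0.276), and from DN2a to DN2b -0.49 ± 0.57 (adjusted p = 1).

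Cd2, an adhesion receptor that binds CD48 in mouse, was close to the counting limit. DN1 had 0 reads in both libraries, DN2a had 4 and 1, DN2b had 7 and 16 (0.455 and 1.30 CPM), and IgG had 3, 0, 4 and 0. Mean Cd2 in DN2b, 0.875 ± 0.594 CPM (SD, n = 2), was 5.94 times the limit of 3 reads per library in DN1. With no filter on low counts the gene could be tested, and the adjusted p of edgeR was 0.187 for DN2b over DN1 and 0.0716 for DN2b over IgG. At this depth a difference of Cd2 among DN1, DN2a and IgG was not detectable.

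Cd7, a receptor of T and NK cells and their precursors, and Cd27 had the smallest adjusted p of the 9 members against IgG in each stage. Cd7 held 11 to 45 reads in the IgG libraries (0.533 to 1.27 CPM, median 0.656) and 89.3 and 173 CPM in DN1, 57.4 and 67.5 CPM in DN2a, and 75.3 and 165 CPM in DN2b. The lowest DN library was thus 57.4 CPM, far above the highest IgG library, while DN1 and DN2b overlapped. Mean Cd7 was 169 times that of IgG in DN1, with log2 fold changes of 7.12 ± 0.48 (SE), 6.22 ± 0.46 and 7.15 ± 0.48 in DN1, DN2a and DN2b (adjusted p = 5.72e-05, 5.1e-05 and 2.14e-05, edgeR). The mean of Cd7 in the stages was lowest in DN2a, with log2 fold changes of -0.90 ± 0.49 from DN1 and 0.93 ± 0.49 to DN2b, and neither passed (adjusted p = 0.553 and 1).

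Cd27, a costimulatory receptor of the TNF receptor family, ran from 1.16 to 3.54 CPM in IgG (median 1.91) and was 90.0 and 146 CPM in DN1, 59.4 and 62.2 CPM in DN2a, and 78.1 and 70.1 CPM in DN2b. All 6 DN libraries held 59.4 CPM or more, and the 3 stages did not overlap. Its log2 fold changes over IgG were 5.57 ± 0.35 (SE), 4.79 ± 0.34 and 5.07 ± 0.35 (adjusted p = 5.42e-05, 4.04e-05 and 2.28e-05, edgeR), and for both Cd7 and Cd27 each call held in all 17 alternatives. The differences between stages were -0.78 ± 0.39 to DN2a and -0.49 ± 0.38 from DN1 to DN2b, and did not pass (adjusted p = 0.519 and 0.636). In the annotation used here (GENCODE vM21, GRCm38) Cd27 (chr6:125232622-125237010) overlaps Vamp1 on the opposite strand, and Cd7 (chr11:121036747-121039418), Cd34 (chr1:194938819-194961279) and Cd44 (chr2:102811141-102901665) overlap noncoding genes. The kit was stranded, but the strand setting of the counting is not given in the sources used here, so reads of these partners cannot be told apart from those of the members.

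**Figure D3:**
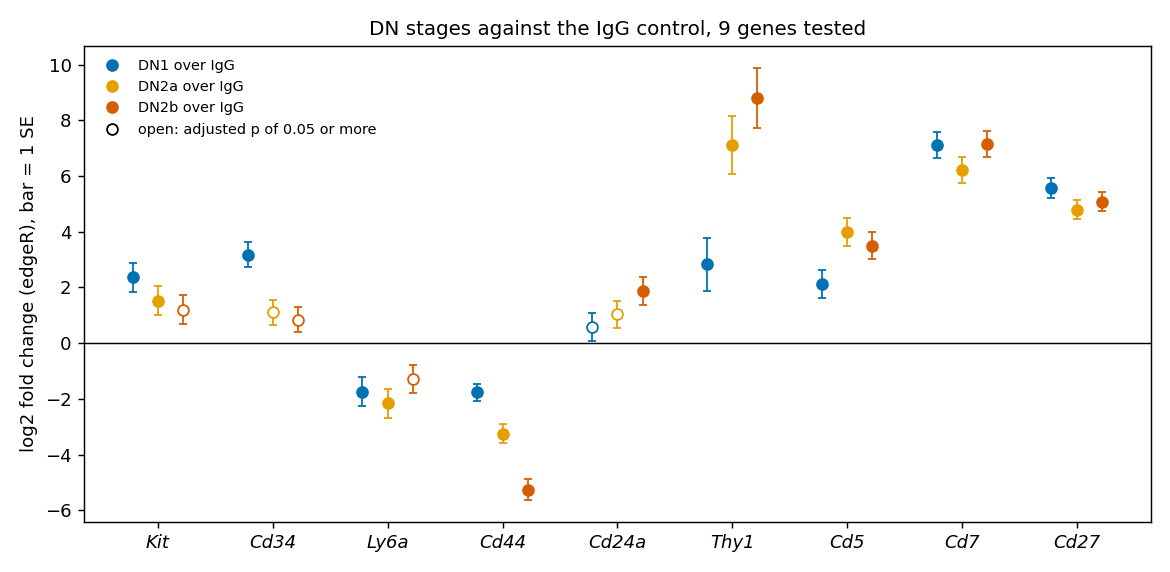
Log2 fold change (y axis, edgeR, bars of 1 SE) of DN1, DN2a and DN2b over IgG for the 9 tested genes. Filled points have an adjusted p under 0.05, and Cd44 and Ly6a lie below 0 in all 3 comparisons while the other genes lie above 0.

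**Figure D4:**
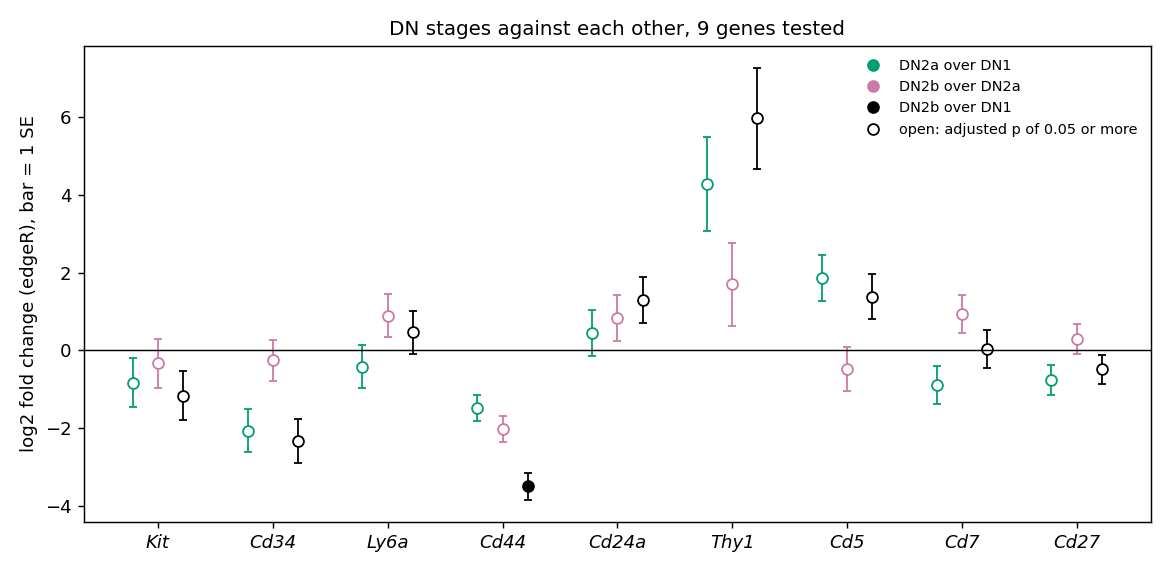
Log2 fold change (y axis, edgeR, bars of 1 SE) between the DN stages for the same 9 genes. The filled point is Cd44 from DN1 to DN2b at -3.50, and the open points for Thy1 at 4.28 and 5.97 carry the widest bars.

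Over the 9 tested members the median log2 fold change was 2.36 in DN1, 1.53 in DN2a and 1.87 in DN2b over IgG, where the medians of all tested genes were 0.01, -0.05 and -0.05. Between stages the members' medians were -0.78 (DN1 to DN2a), 0.28 (DN2a to DN2b) and 0.03 (DN1 to DN2b), with all-gene medians of -0.03, -0.00 and -0.02. The libraries of DN1 and IgG did not overlap for 8 of the 9, against 50.7% of all tested genes, and those of DN2a and DN2b did not overlap with IgG for 9 of 9 each, against 61.6% and 57.7%. Between DN1 and DN2a, 7 of 9 did not overlap (43.7% of all genes), between DN2a and DN2b 8 of 9 (30.6%), and between DN1 and DN2b 7 of 9 (45.6%). The higher of the 2 libraries of a stage was 1.08 to 2.85 times the lower in DN1 (median of the 9 genes 1.62), at most 1.49 times in DN2a and 1.02 to 2.20 times in DN2b, so the spread was widest in DN1.

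Levels of the members were set against each other only per length, as CPM per kilobase of exon. In IgG the order was led by Ly6a (461), Cd24a (141) and Cd44 (64.7), whose libraries did not overlap with those of the next gene. Cd34 (9.51) and Kit (7.03), which overlapped, came next. Cd27 (0.915) and the rest followed, each overlapping with its neighbour. In DN1 the means ran from Cd24a (253) through Ly6a (166), Cd7 (116), Cd34 (103) and Cd27 (50.6) to Kit (44.0), each overlapping with its neighbour, and Cd44 (23.0), Thy1 (2.64) and Cd5 (0.491) followed without overlap. In DN2b, Cd24a (559) and Ly6a (205) led, Thy1 (145) overlapped with Cd7 (106), and Cd27 (31.8), Cd34 (18.4), Kit (17.2), Cd44 (1.79), Cd5 (1.12) and Cd2 (0.503) came after, with overlap between Cd34 and Kit. By mean level, Cd44 thus passed from rank 3 in IgG to rank 8 in DN2b, and Thy1 from rank 8 to rank 3. The ranks of Thy1 are not set apart from those of its neighbours, as it overlapped with Cd7 and Cd5 in IgG and with Cd7 in DN2b. Its IgG mean was carried by library D2 (0.977, against 0.0324, 0.0472 and 0.135 in D1, R1 and R2).

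**Figure D5:**
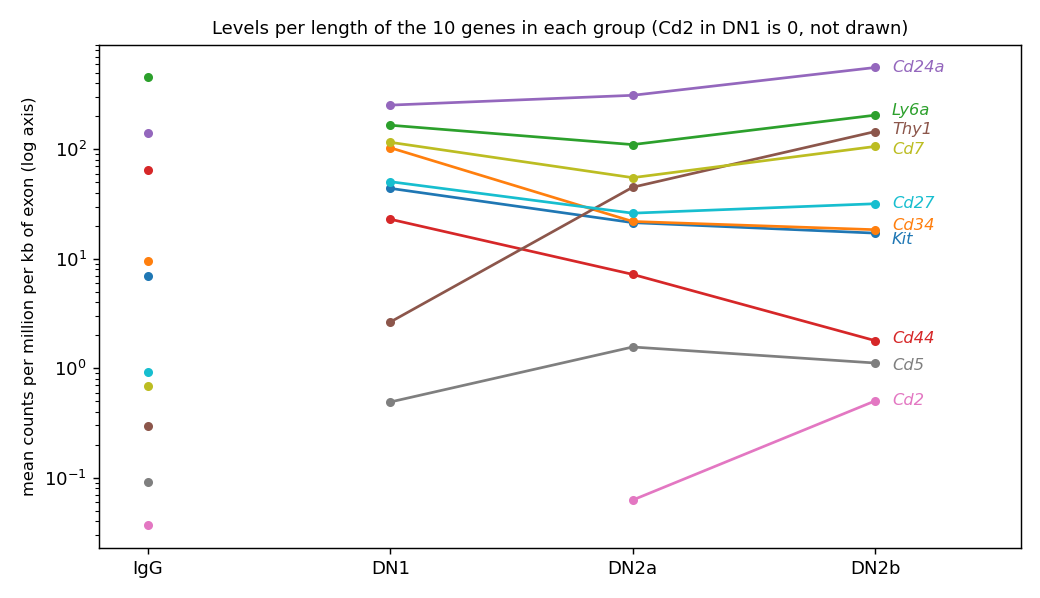
Mean CPM per kilobase of exon (log axis) of the 10 genes in IgG and in the 3 DN stages, with lines joining the stages. Thy1 stands at 2.64 in DN1 and 145 in DN2b and Cd44 at 23.0 and 1.79, while Cd24a, Ly6a and Cd7 are at 55.1 or more in every stage.

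The counts of the other lists are read against the same shares of all genes called, 31.4%, 45.5% and 42.5% in DN1, DN2a and DN2b over IgG and 0.401% and 1.91% from DN1 to DN2a and DN2b. Other surface genes of progenitors differed from IgG in both directions. Of 12 such genes, all tested, 4 were higher and 4 lower in DN1 than in IgG, with a median log2 fold change of 0.22, and 2 were higher and 6 lower in both DN2a (median -1.87) and DN2b (median -1.12). Cd93, a marker of early progenitors, averaged 318 CPM in IgG against 107, 94.0 and 93.1 CPM in DN1, DN2a and DN2b, and was lower in each (adjusted p = 0.00455, 0.00276 and 0.00282, edgeR). Itga2b, the integrin CD41, averaged 11.5 CPM in IgG, was 395 and 131 CPM in DN1 replicates 1 and 2, averaged 127 CPM in DN2a and 21.1 CPM in DN2b, and was higher in DN1 and DN2a (adjusted p = 0.00605 and 0.00919) with 0.485 in DN2b. Between stages 1 gene of the list, Flt3, was lower in DN2a and DN2b than in DN1, at 24.1 and 97.7 CPM in DN1 and at most 4.86 CPM in the DN2 libraries (adjusted p = 0.0459 and 0.0378, edgeR). Without DN1 replicate 1, 11 of the list were tested and the counts in DN1 over IgG were 4 and 4, Cd93 and Itga2b among them (adjusted p = 0.0320 and 0.0379), while Flt3 was called from DN1 to DN2b (adjusted p = 0.0337) and not to DN2a (0.0605). Flt3 encodes a receptor whose ligand was in the medium, and was named after its values were seen.

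Of 12 further T lineage surface genes, 9 were tested. In DN1 6 were higher and 2 lower than in IgG (median 4.15), in DN2a 7 were higher and 2 lower (median 7.00), and in DN2b 7 were higher and 0 lower (median 8.76). From DN1, 4 were higher in DN2a and 6 in DN2b, where 0 and 1 of the 9 members were called. Il2ra, whose product CD25 set the gate between DN1 and DN2, is among both the 4 and the 6. The 1 member, Cd44, is also a gene of the sort, so the 2 lists are not compared apart from the gates. Cd3g, a subunit of the T cell receptor complex, averaged 0.119 CPM in IgG, 70.2 CPM in DN1, 628 CPM in DN2a and 1606 CPM in DN2b, with adjusted p = 0.0499 from DN1 to DN2a and 0.00704 to DN2b (edgeR). Il2ra, which encodes the sorted CD25, was 24.1 CPM in DN1 and 1392 and 1939 CPM in DN2a and DN2b. Il7r, the receptor of the IL-7 that the DN2 cultures received, was 113 ± 104 CPM (SD, n = 4) in IgG and 16.4, 16.2 and 35.1 CPM in DN1, DN2a and DN2b, lower than IgG in DN1 and DN2a (adjusted p = 0.0288 and 0.0242, edgeR). Without DN1 replicate 1, fewer genes of the list and of all genes were called from DN1 to DN2a and to DN2b. Cd3g from DN1 to DN2a and Il7r in DN1 over IgG were then no longer called. Their log2 fold changes in that fit were 2.71 for Cd3g to DN2a, 4.08 for Cd3g to DN2b and -2.52 for Il7r.

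Among 12 ligands and partners of the members, 11 were tested, and 0 were higher and 3 lower in DN1 than in IgG, 2 and 5 in DN2a, and 1 and 5 in DN2b, with 0 called between stages. The share called in this list, 27.3%, 63.6% and 54.5% in the 3 stages, was below that of all genes in DN1 and above it in DN2a and DN2b. Spp1, a ligand of CD44, ranged from 2870.1 to 12919 CPM in IgG and was at most 3.14 CPM in any DN library, with log2 fold changes of -12.08, -14.99 and -14.21 (adjusted p = 7.77e-04, 2.75e-04 and 3.13e-04, edgeR). Cd48, a ligand of CD2, averaged 46.0 CPM in IgG and 158, 321 and 349 CPM in DN1, DN2a and DN2b, and was higher in DN2a and DN2b (adjusted p = 0.0031 and 0.00274). Ptpn6, a phosphatase that acts on KIT signalling, averaged 317 CPM in IgG and 215, 121 and 81.4 CPM in the stages, and was lower in each (adjusted p = 0.0467, 0.00347 and 9.26e-04, edgeR). Grb2, an adaptor bound by active KIT, was 212 to 353 CPM on average in the 4 groups and was called in no comparison, with adjusted p from 0.127 to 1. With DN1 replicate 1 left out the list had 1 gene higher and 2 lower in DN1 than in IgG, with adjusted p = 0.0352 for Cd48, 0.00593 for Spp1 and 0.0872 for Ptpn6.

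In the Ly6 family, 8 of 10 genes were tested, with Ly6a counted among them, and 1 was higher and 5 lower in DN1 and in DN2a than in IgG, and 1 higher and 4 lower in DN2b, Ly6a being one of the lower genes in DN1 and DN2a. Between stages, 0 were called from DN1 to DN2a or from DN2a to DN2b, and 2 were higher in DN2b than in DN1, Ly6c1 and Ly6d (adjusted p = 0.0426 and 0.0401, edgeR), which were named after their values were seen. Neither passed without DN1 replicate 1 (adjusted p = 0.212 and 0.156), and the counts in DN1 over IgG were 1 and 4. Ly6e, which stood at 1160.4 to 1759.6 CPM on average in the 4 groups, was not called in any comparison with IgG (adjusted p = 0.139 to 0.428, edgeR). Ly6c2, a gene of monocytes and granulocytes, averaged 844 CPM in IgG, was 38.9 and 0.379 CPM in DN1 replicates 1 and 2, and was at most 0.109 CPM in the DN2 libraries. Ly6i averaged 47.8 CPM in IgG and at most 0.474 CPM in a stage. The 6 tested of 7 stage factors, which include the Notch targets Hes1, Nrarp and Dtx1, were higher than IgG in each stage, and 2 of them, Gata3 and Bcl11b, were higher in DN2b than in DN1 (adjusted p = 0.0426 and 0.0205, edgeR). These 2 were named after their values were seen, and did not pass without DN1 replicate 1 (adjusted p = 0.267 and 0.0748).

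By their course over the 10 libraries, measured as Pearson's r of log2(CPM + 1) among 8636 genes with a mean of at least 10 CPM, the genes most like each member were as follows. Kit was most like Dyrk3 (r = 0.987) and Rgs12 (0.985), and Cd44 most like Cotl1 (0.989) and Ntpcr (0.988). Thy1 was most like Tgtp1 (0.989) and Endou (0.987), Cd5 most like E030002O03Rik (0.993) and Kcnk5 (0.986), and Cd7 most like Slc25a53 (0.995) and the Notch target Hes1 (0.993). Cd27 went with Sox4 (0.995) and Slc43a1 (0.993). The likeness was lower for Cd34, with Oaz2 (0.938) and Elf1 (0.928), for Cd24a, with Cd164 (0.955) and Ankrd46 (0.944), and for Ly6a, with Trim30a (0.956) and Ddx58 (0.952). Cd2, with few reads, had 5830411N06Rik (0.897) and Cd163l1 (0.883). Within the members the closest pairs were Cd7 with Cd27 (r = 0.986), Cd5 with Thy1 (0.943) and Kit with Cd34 (0.875), and Cd44 ran opposite to Thy1 (-0.980). These coefficients are descriptions over libraries of 4 groups that share their group differences, depth and the IgG set.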

How the data were processed

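Total RNA libraries (TruSeq stranded) were sequenced by the authors, and reads of 36 bases were aligned to mm10; the submitters' notes name TopHat2 2.12, Cufflinks 2.2.1 and HTSeq 0.6.1p1. The deposited files hold whole-number counts per gene for each library. The 5 summary lines were dropped, and unplaced reads of the class "not unique" made up 16.4 to 30.1% of the reads tallied. CPM were taken over gene rows. The 12221 genes at or above 1 CPM in 2 or more libraries were fitted with edgeR 4.0.16 (R 4.3.3, TMM, quasi-likelihood test, 1 fit over the 4 groups, common dispersion 0.189), with Benjamini-Hochberg adjusted p under 0.05 as a call. DESeq2 1.42.0, other filters, scalings and control subsets, each library left out in turn and a replicate block were alternatives, 17 per comparison with IgG and 19 between stages. The other gene lists were also counted without DN1 replicate 1, a choice made after seeing the data. Steps were tested on simulated data. DN2a and DN2b titles carry the same dates, and deviations of same-year libraries correlated over genes (r = 0.465), less so for DN1 (0.0583 and 0.211). Figures used matplotlib 3.10.9. Named were all members, the 2 genes most like each, and from the other lists at most 4 genes of highest mean CPM each, beside genes marked as named after their values were seen. Members and lists were chosen with earlier results of these data known.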

Additional observations from a re-analysis of the deposited data

Results flagged for a closer look

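Within the 4 IgG libraries, Thy1 in library D2 stood at 2.93 CPM (74 reads), apart from the other 3, which held 2 to 12 reads. Its gap to the next library was 0.891 of the group's range, above the critical value of Dixon's test for 4 samples. The IgG group was so tested for each of the 10 genes, and chance flags about 1 in 20 such tests. The same library had the highest Kit (115 CPM), Cd24a (556 CPM), Ly6a (926 CPM), Cd34 (110.4 CPM) and Cd5 (0.751 CPM) of the 4, and the highest summed level of the neutrophil and mast cell genes (61728 and 211 CPM). What lies behind these values was not tested.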

How the results depend on the processing

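Of the log2 fold changes that were called, 366 alternative values remained called with the same direction and 32 were no longer past the threshold, and of those not called, 34 passed and 7 changed sign. With each library left out in turn, Cd24a in DN1 over IgG ran from -0.47 (without DN1 replicate 2) to 1.17, Cd24a from DN1 to DN2a from -0.14 (without DN1 replicate 1) to 1.502, Ly6a from DN1 to DN2a from -0.93 to 0.38 (without DN1 replicate 2), Ly6a from DN1 to DN2b from -0.043 (without DN1 replicate 1) to 1.27, and Cd7 from DN1 to DN2b from -0.61 (without DN2b replicate 2, and -0.41 without DN1 replicate 1) to 0.68, and the last was -0.13 with library size only. None of these was called. In the same runs the number of members called was 6 to 8 in DN1 over IgG, 5 to 9 in DN2a, 5 to 8 in DN2b, 0 to 1 from DN1 to DN2a (1 without IgG D2), 0 to 0 from DN2a to DN2b and 1 to 3 from DN1 to DN2b (2 without IgG D1 and 3 without IgG D2), while the share of all genes called was 15.5 to 34.3%, 22.1 to 49.6%, 22.0 to 46.7%, 0.0 to 1.9%, 0.0 to 0.00824% and 0.424 to 3.17% in the same order. In DN1 over IgG the count was 5 with IgG libraries D1 and D2 only. From DN1 to DN2a it was 3 with DESeq2, and 1 with the groups compared only, with IgG R1 and R2 only, with the 6 DN libraries and no replicate block, and with the year as a replicate block. From DN1 to DN2b it was 3 with DESeq2 and 2 with library size only, no filter, the groups compared only, IgG R1 and R2 only, and the 6 DN libraries with or without the replicate block. From DN2a to DN2b it was 1 with DESeq2 and 0 with the block. Over all genes the DN1 to DN2a calls numbered 49 in edgeR and 474 in DESeq2, and the DN1 to DN2b calls 233 and 822. With the 6 DN libraries alone, 11316 genes were tested. From DN1 to DN2a 32 were called without the block and 58 with it, and from DN1 to DN2b 187 and 233. For the other subsets, filters and scalings the calls over all genes are not given here, so their member counts stand without that share. Among the 6 DN libraries the year as a replicate block, with dates shared by DN2a and DN2b only, changed no member's call, and Thy1 was called from DN1 with and without it. The cause of these changes was not tested. With 2 libraries a stage, small differences could not be detected, and Cd2 was limited by its 0 to 16 reads.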
